A study of Homo sapiens with 6 samples.

Results

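The comparison took the 4 arrays of A549 cells transfected with either MYEOV siRNA (siMYEOV_1 and siMYEOV_2, 2 arrays each) as 1 group and set them against the 2 arrays of cells transfected with the control siRNA, siNC. A549 is an established human lung adenocarcinoma line, grown here in DMEM with serum, and all 6 samples had been transfected with Lipofectamine RNAiMAX and harvested after 48 hours. The members are the array rows whose signal lay beyond both control arrays, in 1 direction, in all 4 knockdown arrays. They number 1798 of the 7837 rows that carry 1 gene symbol and reach a mean log2 signal of 5.45 over the 6 arrays. Of them, 917 rows were higher and 881 lower, which is 11.7% and 11.2% of the rows tested (22.9% together). The same arrays chose the members and give the comparison, so these counts are a description and no test supports them. What siNC targets, and the sequence of each of the 3 siRNAs, is not stated in the labels used here.

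MYEOV lies on chromosome 11 beside the cyclin D1 gene, has been found overexpressed in myeloma, and is raised in several carcinomas, while the function of its product is not settled. An siRNA guides the silencing complex to transcripts that match it, and studies use more than 1 siRNA against a target because each may also lower transcripts that it matches only in part. Pooling them as 1 group counts any difference between the siRNAs as spread, so the comparison favours transcripts that moved by the same amount with both.

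Array medians lay between 4.08 and 4.10 (log2). Of the epithelial markers with a named row, 5 of 5 exceeded 5.45, with means from 5.55 to 12 and a list mean of 7.95 to 7.99 in the control arrays and 7.76 to 7.99 in the knockdown arrays. Of 7 alveolar type 2 markers, 2 fibroblast markers and 4 endothelial markers with a row, 0 did, and of 3 leukocyte markers 1 did, CD68 at 9.33. The markers of differentiated alveolar type 2 cells thus lay below the level used here, from 2.88 to 5.14. In RNA from a whole culture, fewer cells with a transcript and less of it per cell cannot be told apart. Values below are log2 RMA signals, changes are knockdown minus control in log2 units, each ± its standard error (SE), and n is 4 knockdown arrays against 2 control arrays throughout. The 4 knockdown arrays are 2 of each siRNA and so are not 4 repeats of 1 treatment. A row is said to have risen or fallen only where limma's test of the pooled groups, over all 7837 rows, gave a Benjamini-Hochberg adjusted p under 0.05. That fit leaves out the replicate number, and calls lost with the replicate number as a block are marked below. Whether the arrays of a group repeat the transfection or only the hybridisation is not stated in the labels, and p-values reflect no more than the spread among the arrays at hand. For a single gene the smallest p that an exact permutation test allows with this design is 0.0667, and limma reaches smaller values by borrowing the spread of other rows.

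The promoter sequences of 4 of the genes that rose with the widest gap to the controls are shown because these genes rose by similar amounts. A promoter window was at hand for 19 of the 25 genes that rose. Each run covers 250 bases before to 50 after the gene's start (GRCh38.p14, RefSeq), written 5′ to 3′ on the gene's strand, with motif matches in capitals. They are ACLY at chr17:41918973-41919272 (minus strand), PDCD4 at chr10:110871678-110871977 (plus), TMEM87B at chr2:112055019-112055318 (plus) and CENPK at chr5:65563119-65563418 (minus).
ACLY: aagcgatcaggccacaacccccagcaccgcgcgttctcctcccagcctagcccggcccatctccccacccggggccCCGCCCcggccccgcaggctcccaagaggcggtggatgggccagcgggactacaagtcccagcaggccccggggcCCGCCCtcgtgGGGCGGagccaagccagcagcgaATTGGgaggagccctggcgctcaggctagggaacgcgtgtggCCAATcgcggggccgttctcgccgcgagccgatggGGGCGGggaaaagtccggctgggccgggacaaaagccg
PDCD4: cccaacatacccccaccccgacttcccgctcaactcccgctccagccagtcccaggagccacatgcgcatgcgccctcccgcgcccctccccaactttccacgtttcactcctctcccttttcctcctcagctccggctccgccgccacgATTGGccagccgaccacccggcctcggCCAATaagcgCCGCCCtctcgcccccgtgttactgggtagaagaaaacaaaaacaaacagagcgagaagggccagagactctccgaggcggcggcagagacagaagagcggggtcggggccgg
TMEM87B: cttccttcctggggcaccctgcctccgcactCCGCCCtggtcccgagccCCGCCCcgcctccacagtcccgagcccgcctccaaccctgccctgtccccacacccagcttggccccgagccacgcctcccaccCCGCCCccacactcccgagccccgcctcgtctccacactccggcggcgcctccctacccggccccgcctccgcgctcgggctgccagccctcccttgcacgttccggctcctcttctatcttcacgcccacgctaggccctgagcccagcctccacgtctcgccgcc
CENPK: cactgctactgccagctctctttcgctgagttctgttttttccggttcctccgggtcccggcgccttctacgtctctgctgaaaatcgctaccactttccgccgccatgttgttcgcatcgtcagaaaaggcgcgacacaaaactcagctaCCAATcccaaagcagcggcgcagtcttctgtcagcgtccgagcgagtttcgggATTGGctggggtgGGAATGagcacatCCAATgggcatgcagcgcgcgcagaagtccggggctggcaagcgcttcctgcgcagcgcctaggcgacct
Capitals mark the CCAAT box (reverse complement ATTGG), the GC box GGGCGG (reverse complement CCGCCC) and the TEAD motif GGAATG, and no match overlapped another. The ACLY window held 2 CCAAT and 4 GGGCGG matches, that of PDCD4 2 CCAAT and 1 GGGCGG, that of TMEM87B 3 GGGCGG, and that of CENPK 3 CCAAT and 1 GGAATG.

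Across both strands of those windows, CCAAT was present in 7 of the 19 promoters of genes that rose (36.8%), against 37.2% of the promoters of all rows tested and 35.7% of all 27305 RefSeq promoters. GGGCGG was present in 15 of 19 (78.9%), against 72.5% of tested and 44.6% of all. Among the 725 promoters of rows with all 4 knockdown arrays above the controls GGGCGG was in 72.4%, and among the 696 below it was in 71.6%. The cyclic AMP motif TGACGTCA and the E2F motif TTTCGCGC were in 0 of the 19, against 3.49% and 1.13% of tested rows, and the E-box CACGTG and the TATA motif TATAAA in 1 each (5.26%), against 10.5% and 4.90%. GGAATG was in 2 of 19 (10.5%), against 10.4% of tested rows. These matches are letters in a window and were not tested as binding sites.

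The targeted transcript itself was lower on every knockdown array. MYEOV was at 6.20 and 6.50 in the controls, 5.34 and 5.19 for siRNA 1, and 5.23 and 4.70 for siRNA 2. The highest knockdown value lay 0.858 below the lowest control value, the widest gap among the rows with a named gene that were lower. Every knockdown value lay under 5.45, the mean level set for a row to be tested. The row's mean over all arrays, 5.53, passed that level through the control values. Whether RMA shrank the MYEOV difference at such signals was not tested. The pooled difference was -1.24 ± 0.18 (95% confidence interval -1.66 to -0.81), with an adjusted p of 0.0526 (limma, Benjamini-Hochberg), which just misses the threshold. Without the lowest array, siRNA 2 replicate 2, the difference was -1.10 with an adjusted p of 0.0398. With siRNA 1 and siRNA 2 as separate groups, which leaves the difference between them out of the spread, the adjusted p of their mean was 0.00834 (limma, Benjamini-Hochberg).

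Over all rows, limma called 29 of 7837 (0.37%), of which 25 rose (0.319%) and 4 fell (0.051%). All 29 were among the 1798 members, and at an unadjusted p under 0.05 there were 925 rows, 520 higher and 405 lower, 905 of them members. With the siRNA as a random block, 17 of the 25 and 0 of the 4 were called. With the replicate number as a block, 9 of the 25 and 0 of the 4 were called: ACLY, ANKFY1, BRWD3, KLHL15, LBR, MIS18A, NEK7, PDCD4 and TMEM87B. The genes are ordered below by what each encodes, with the counts of the gene lists they belong to. Of the 25, each was the single tested row of its gene. The calls depend on each array in turn: without siNC replicate 1 or siNC replicate 2 there were 2 and 5 higher calls, without siRNA 1 replicate 1 or 2 there were 10 and 14, and without siRNA 2 replicate 1 or 2 there were 9 and 8. PDCD4 and TMEM87B were the 2 that passed whichever array was left out, and 16 of the 29 passed in none of these fits.

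**Figure D1:**
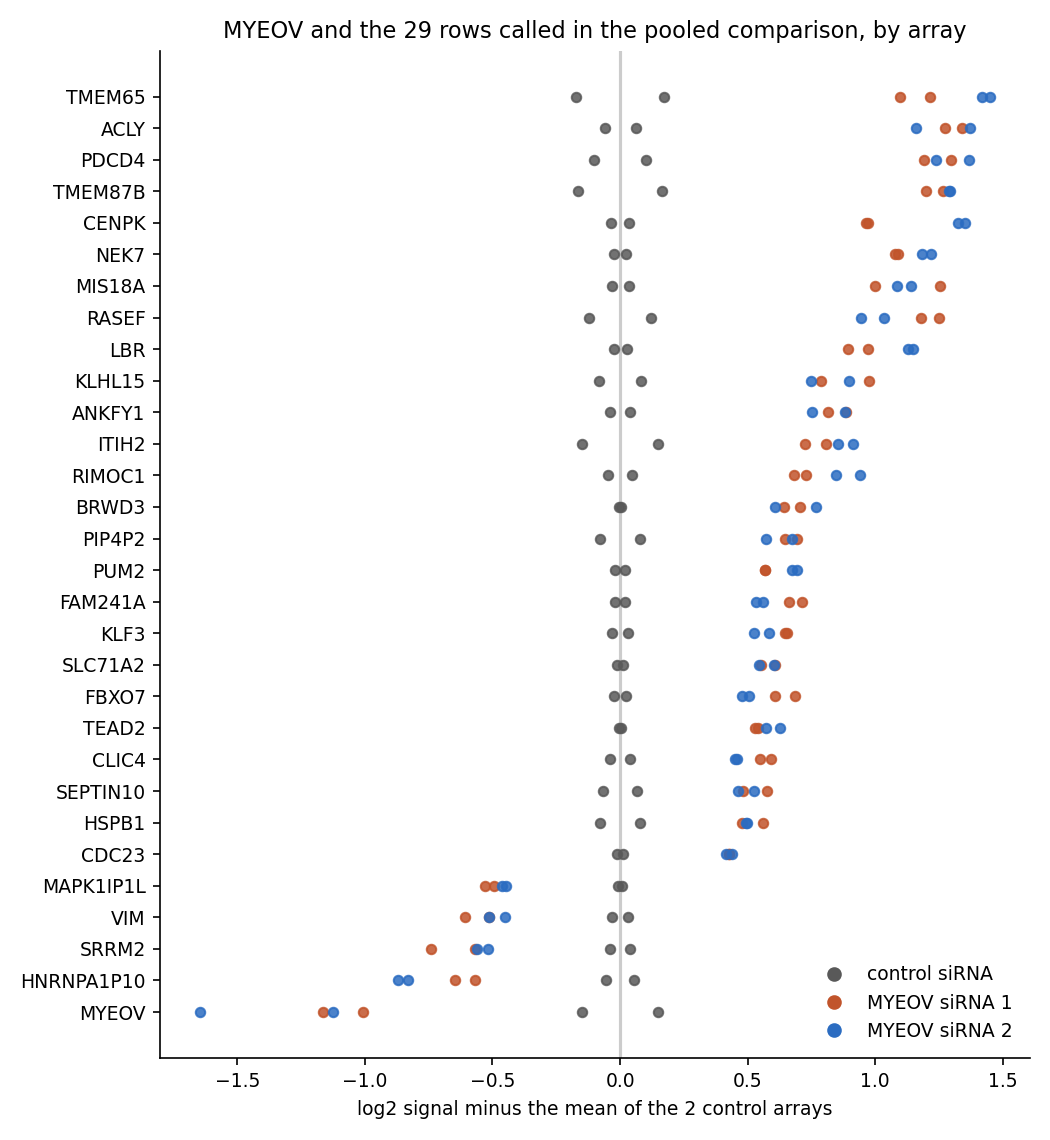
Log2 signal of MYEOV and of the 29 rows called in the pooled comparison, per array, minus the mean of the 2 control arrays (horizontal axis), 1 row per line; grey points are control arrays, orange points siRNA 1 and blue points siRNA 2. The 25 rows that rose sit between 0.43 (CDC23) and 1.30 (TMEM65) on average, and in every called row the 4 knockdown points lie on 1 side of both control points.

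Among metabolic genes, ACLY, the enzyme that makes cytosolic acetyl-CoA from citrate for fatty acid and sterol synthesis, had the widest gap of all. Its signal was 10.50 and 10.62 in the controls, 11.83 and 11.90 with siRNA 1 and 11.72 and 11.93 with siRNA 2. ACLY rose by 1.29 ± 0.08 (limma, Benjamini-Hochberg adjusted p = 0.00331), and the lowest knockdown array stood 1.10 above the highest control. Both siRNAs gave nearly the same level, with a difference between them of 0.04. The call was lost without siNC replicate 1 (adjusted p = 0.0734) and held in the other 15 of 16 alternatives.

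Of RNA-binding proteins that act on translation, PDCD4, which holds back translation initiation through the helicase eIF4A, was at 7.64 and 7.43 in the controls, 8.83 and 8.73 with siRNA 1 and 8.77 and 8.90 with siRNA 2. It rose by 1.27 ± 0.09 (limma, Benjamini-Hochberg adjusted p = 0.00331), and its adjusted p stayed at or below 0.0490 in all 16 alternatives. PUM2, a Pumilio protein that represses mRNAs through their tails, was at 9.04 and 9.08 in the controls, 9.63 and 9.63 with siRNA 1 and 9.74 and 9.76 with siRNA 2. PUM2 rose by 0.63 ± 0.07 (adjusted p = 0.0212) and its call was lost in 9 of 16 alternatives, the omission of any 1 array and the replicate block (adjusted p = 0.0732) included. Of the 13 translation initiation genes tested, 1 was higher and 3 were lower (30.8%, against 22.9% over all rows).

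The next called genes act at the centromere and spindle, lists with no more members than the 22.9% over all rows: 4 higher and 2 lower of 27 centromere genes (22.2%), and 3 higher and 2 lower of 29 G2/M and mitosis genes (17.2%, median change -0.0478). MIS18A, part of the complex that licenses deposition of the centromeric histone CENP-A, was at 6.89 and 6.95 in the controls, 7.92 and 8.17 with siRNA 1 and 8.06 and 8.01 with siRNA 2. CENPK, a subunit of the inner kinetochore, was at 6.90 and 6.83, 7.83 and 7.83, and 8.21 and 8.19 in the same order. NEK7, a kinase of spindle assembly and of the inflammasome, was at 5.83 and 5.88, 6.94 and 6.93, and 7.07 and 7.03. All 3 stood clear of the controls on every knockdown array, and they rose by 1.12 ± 0.08, 1.15 ± 0.13 and 1.14 ± 0.07 (limma, Benjamini-Hochberg adjusted p = 0.00548, 0.0225 and 0.00331). CENPK was the single called row whose level also differed between the siRNAs, by -0.37 for siRNA 1 minus siRNA 2 (adjusted p = 0.0193). CDC23, a subunit of the anaphase-promoting complex, rose by 0.43 ± 0.06 (adjusted p = 0.0471), the smallest of the 25 rises. With the replicate block CENPK and CDC23 were not called (adjusted p = 0.0958 and 0.11).

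At the nuclear envelope, LBR, an inner membrane protein that tethers heterochromatin and carries sterol reductase activity, was at 8.19 and 8.25 in the controls, 9.11 and 9.19 with siRNA 1 and 9.35 and 9.37 with siRNA 2. It rose by 1.03 ± 0.09 (limma, Benjamini-Hochberg adjusted p = 0.00918). The siRNA 2 arrays lay above those of siRNA 1, a difference of -0.21 (siRNA 1 minus siRNA 2) that did not pass the test (adjusted p = 0.122, 95% confidence interval -0.37 to -0.05).

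Of genes for membrane and vesicle proteins, TMEM87B, a multi-pass protein of the Golgi, was at 6.58 and 6.24 in the controls, 7.67 and 7.61 with siRNA 1 and 7.70 and 7.70 with siRNA 2. TMEM65, a protein of the mitochondrial inner membrane, was at 7.74 and 7.40, 8.67 and 8.79, and 8.99 and 9.02. Their control arrays lay further apart than those of the other called genes named here, and the groups did not overlap. They rose by 1.26 ± 0.10 and 1.30 ± 0.14 (limma, Benjamini-Hochberg adjusted p = 0.00548 and 0.0182). RASEF, a Rab-type GTPase with EF hands, was at 7.31 and 7.06, 8.44 and 8.37, and 8.22 and 8.13. ANKFY1, an endosomal effector of Rab5, was at 8.36 and 8.28, 9.21 and 9.14, and 9.07 and 9.20. RIMOC1, which stabilises the complex that activates Rab7, was at 7.20 and 7.29, 7.97 and 7.93, and 8.19 and 8.09. The last 3 rose by 1.10 ± 0.11, 0.83 ± 0.07 and 0.80 ± 0.09 (adjusted p = 0.0182, 0.00767 and 0.0212). RASEF lay nearer the controls with siRNA 2 and RIMOC1 with siRNA 1, without passing the test between the siRNAs (adjusted p = 0.215 and 0.184). With the replicate block TMEM65, RASEF and RIMOC1 were not called (adjusted p = 0.0732, 0.0517 and 0.0806). Of the 18 RAB and endosome traffic genes tested, 2 were higher and 3 lower (27.8%, against 22.9% over all rows), with a median change of 0.0186.

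The remaining called genes with wide gaps act on chromatin, ubiquitin and matrix. BRWD3, a bromodomain protein of chromatin, was at 7.94 and 7.95 in the controls, 8.59 and 8.65 with siRNA 1 and 8.55 and 8.71 with siRNA 2. KLHL15, a substrate adaptor of cullin ubiquitin ligases, was at 5.95 and 6.11, 6.82 and 7.01, and 6.78 and 6.93. ITIH2, a secreted hyaluronan-binding protein made mainly by liver, was at 5.43 and 5.72, 6.30 and 6.38, and 6.49 and 6.43. They rose by 0.68 ± 0.07, 0.85 ± 0.09 and 0.82 ± 0.10 (limma, Benjamini-Hochberg adjusted p = 0.0182, 0.0182 and 0.0276), and the values of the siRNAs interleaved for BRWD3 and KLHL15. ITIH2 was not called with the replicate block (adjusted p = 0.0735). The other 10 called genes lie outside the rule for named genes and are named here after their values were seen: SLC71A2, TEAD2, FAM241A, KLF3, PIP4P2, FBXO7, CLIC4, SEPTIN10 and HSPB1 rose by 0.51 to 0.64, and CDC23 is given above. None of those 9 was called with the replicate block (limma adjusted p = 0.0609 to 0.125). HSPB1, a small heat shock protein, was at 11.55 and 11.39 in the controls and 11.94 to 12.03 in the knockdown arrays.

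The 4 rows called lower were of another kind. They belonged to SRRM2, a scaffold of nuclear speckles, to MAPK1IP1L, to VIM, the intermediate filament vimentin, and to HNRNPA1P10, a processed pseudogene of HNRNPA1. Each of these genes has more than 1 tested row, and in each the called row was not the brightest. With the replicate block none of the 4 was called (adjusted p = 0.11 for SRRM2, 0.0955 for MAPK1IP1L, 0.11 for VIM and 0.125 for HNRNPA1P10). The dimmer SRRM2 row was at 8.50 and 8.58 in the controls, 7.80 and 7.97 with siRNA 1 and 8.02 and 7.98 with siRNA 2, and fell by 0.60 ± 0.08 (limma, Benjamini-Hochberg adjusted p = 0.0471). Its brightest row was at 10.40 and 10.46, 10.40 and 10.34, and 10.28 and 10.33, a difference of -0.09 (adjusted p = 0.638). So the 2 rows of SRRM2 lay on the same side by very different amounts.

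The other 3 genes also had a brightest row that differed less than the called one. MAPK1IP1L's dimmer row was at 6.81 and 6.80 in the controls and 6.28 to 6.36 in the knockdown arrays and fell by 0.48 ± 0.06 (limma, Benjamini-Hochberg adjusted p = 0.0337), whereas its brightest row overlapped, at 8.90 and 8.93 against 8.84 to 9.02 (adjusted p = 0.968). VIM had a called row at 8.97 and 8.91 against 8.33 to 8.49, which fell by 0.52 ± 0.07 (adjusted p = 0.0467), another at 8.52 and 8.40 against 7.87 to 8.03 with a difference of -0.49 (adjusted p = 0.0526), and a brightest row at 9.69 and 9.64 against 9.57 to 9.61, a difference of -0.07 (adjusted p = 0.693). HNRNPA1P10 had a called row at 9.07 and 9.18 against 8.25 to 8.55, which fell by 0.73 ± 0.10 (adjusted p = 0.0471), and a brightest row that overlapped, at 12.16 and 12.35 against 11.93 to 12.29 (adjusted p = 0.699). HNRNPA1 itself differed by -0.04 (adjusted p = 0.868), and since the pseudogene's sequence is close to that of HNRNPA1, its signal is uncertain. With 1 row per gene, the brightest, 20 rows were called higher and 0 lower (limma, 867 at an unadjusted p under 0.05).

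**Figure D2:**
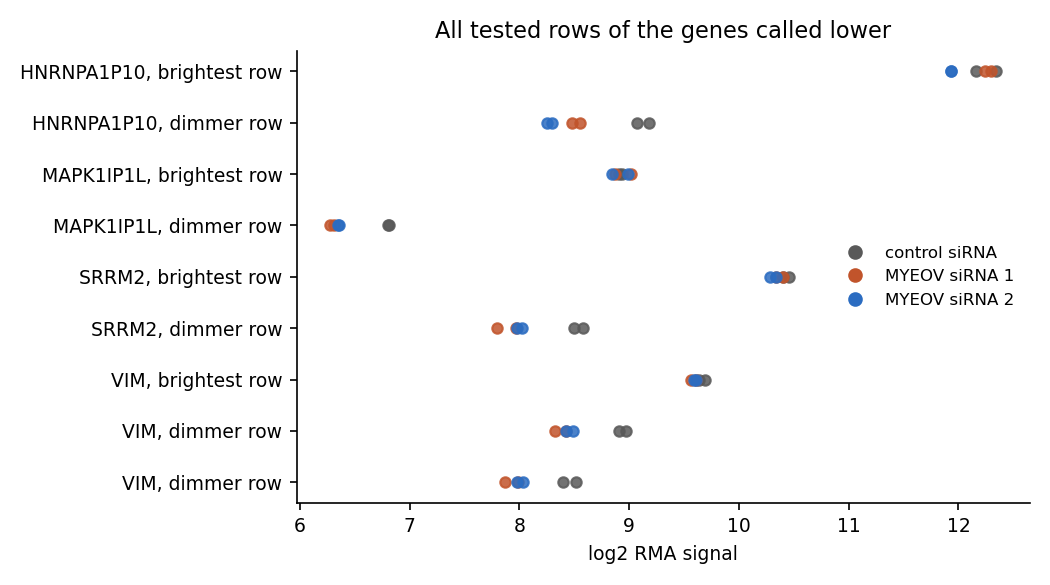
Log2 RMA signal (horizontal axis) of every tested row of the 4 genes with a called lower row, 1 line per row and 1 point per array; grey points are control arrays, orange points siRNA 1 and blue points siRNA 2. The called rows are dimmer rows, such as that of MAPK1IP1L at 6.81 and 6.80 in the controls against 6.28 to 6.36, while the knockdown points of its brightest row overlap the controls.

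Rows of the same gene did not always move together among the members either. Of the 395 dimmer rows of genes with several rows, 67 (17.0%) were lower and 25 (6.33%) higher in all 4 knockdown arrays. For the 211 brightest rows of those genes the counts were 20 (9.48%) and 18 (8.53%), and for the 7231 genes with 1 tested row 794 (11%) and 874 (12.1%). Some dimmer rows are copies: 24 of the 881 lower members share all 6 values with another row, and with identical rows counted once, 54 of 316 dimmer rows (17.1%) were lower. Of the 211 genes, 72 had at least 1 member row, 17 had all their rows on 1 side and 5 had rows on opposite sides. SCD, the desaturase that makes monounsaturated fatty acids, is 1 of these 5, chosen here after its values were seen: its brightest row was at 11.37 and 11.49 against 11.51 to 11.72, and its other row at 6.77 and 6.80 against 6.47 to 6.72. A count of lower rows therefore holds more second rows of a gene than a count of higher rows does.

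Most members moved little. The median change was 0.208 for the higher rows and -0.195 for the lower, against -0.00828 over all rows tested, and 572 higher and 597 lower rows changed by less than 0.25. A change of at least 1 was seen in 9 higher and 2 lower rows and of at least 0.5 in 69 and 56. The gap between the nearest arrays of the groups was narrower still, with medians of 0.0678 and 0.0524, and 370 higher and 428 lower rows had a gap under 0.05. Wide gaps lay mainly among the higher rows: 92 of 917 had a gap of at least 0.25 and 21 of at least 0.5, against 41 and 2 of 881. Just inside the criterion, CDC42BPB was at 9.54 and 9.49 in the controls against 9.54 to 9.63, and OXA1L at 10.68 and 10.69 against 10.61 to 10.68. Just outside it, NOMO1 was at 9.73 and 9.71 against 9.73 to 9.86, and ARHGEF3 at 5.75 and 5.68 against 5.61 to 5.68, so the margin itself separates rows that hardly differ.

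**Figure D3:**
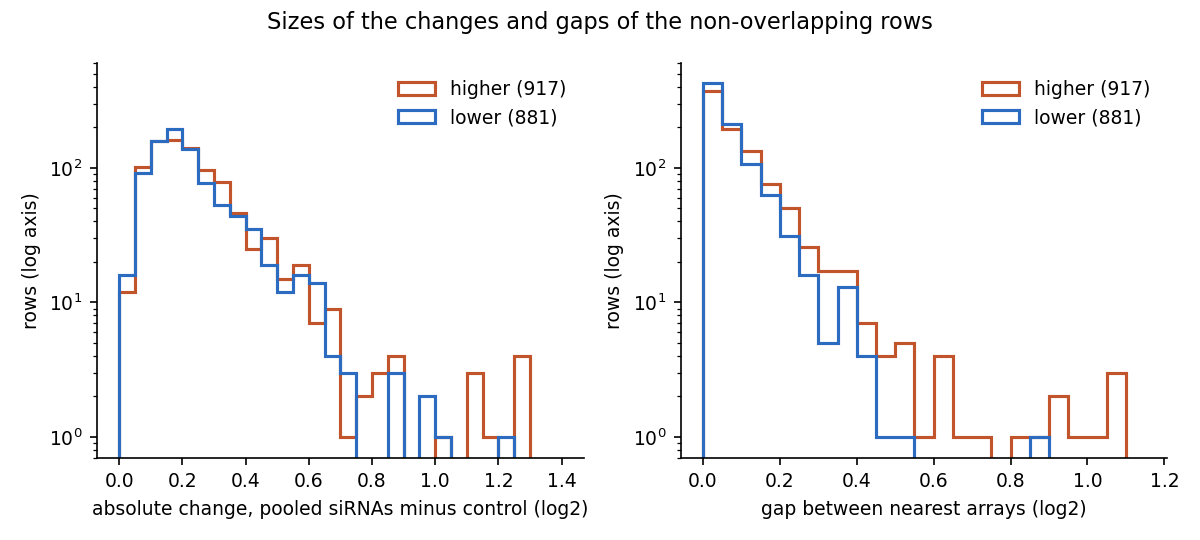
Number of non-overlapping rows (vertical axes, log scale) by absolute pooled change (left) and by the gap between the nearest knockdown and control arrays (right), both in log2 units, for the 917 higher rows (orange) and the 881 lower rows (blue). Most rows sit at small values in both directions, and 21 higher rows against 2 lower rows have a gap of at least 0.5.

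The members' median signal was 7.36 for the higher and 7.65 for the lower rows, against 7.32 for all. Of 7265 protein-coding rows tested, 879 (12.1%) were higher and 819 (11.3%) lower. Of 170 microRNA rows 13 (7.65%) were higher and 17 (10%) lower, and of 226 long non-coding RNA rows 13 (5.75%) were higher and 31 (13.7%) lower, differences in share that were not tested. On chromosome 11, where MYEOV lies, 52 rows were higher and 56 lower of 431. Among the 11 tested neighbours of MYEOV in the list of that region, 0 were higher and 1 was lower (9.09%, against 22.9% over all genes). That neighbour was CCND1, cyclin D1, at 9.46 and 9.50 in the controls, 9.38 and 9.41 with siRNA 1 and 8.80 and 8.73 with siRNA 2.

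With each siRNA fitted as its own group, the test of their mean against control no longer counts the difference between them as spread, and limma called 419 rows (5.35%), 191 higher (2.44%) and 228 lower (2.91%). Of these, 186 higher and 163 lower rows were members, and the 29 rows called in the pooled fit were all among them. The siRNA comparisons share their control arrays, so calls by each are given side by side only. Neither these comparisons nor the 3-group mean were refitted with the replicate number as a block, so calls with 3 groups leave that pairing out. Over all 7837 rows, siRNA 1 had 171 higher (2.18%) and 189 lower calls (2.41%), and siRNA 2 had 198 higher (2.53%) and 338 lower (4.31%). Of the higher members 76 were called with both siRNAs, 60 with siRNA 1 alone, 79 with siRNA 2 alone and 702 with neither. Of the lower members 29 were called with both, 61 with siRNA 1 alone, 121 with siRNA 2 alone and 670 with neither. The same arrays chose the members, so nothing is read from these counts.

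Several lower members with wide gaps passed the 3-group test but not the pooled one, and they are named here after their values were seen. DDAH1, which breaks down asymmetric dimethylarginine, was at 6.22 and 6.34 in the controls, 5.76 and 5.79 with siRNA 1 and 5.47 and 5.60 with siRNA 2, a difference of -0.62 (limma, Benjamini-Hochberg adjusted p = 0.0753 pooled, 0.00602 with 3 groups). ZBTB24, a zinc finger factor tied to DNA methylation, was at 7.92 and 7.92, 7.50 and 7.55, and 7.54 and 7.54, a difference of -0.39 (0.0526 and 0.0126). YRDC, which makes the threonylcarbamoyl group of transfer RNAs, was at 8.71 and 8.46, 7.89 and 7.67, and 8.05 and 8.08, a difference of -0.66 (0.123 and 0.0124). None of these overlapped the controls, and ZBTB24 had the tightest arrays of the 3. On the higher side, CHMP4C, an ESCRT-III subunit of the abscission checkpoint, was at 6.60 and 6.39 against 7.22 to 7.66, a difference of 0.89 (0.0534 and 0.0129), and PGM2L1 and GOLIM4 differed by 0.86 and 0.75 (adjusted p = 0.0589 and 0.0513 pooled, 0.00899 and 0.00849 with 3 groups).

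The criterion that chose the members used all 4 knockdown arrays. A difference between the siRNAs uses no control array, but its test takes the spread from all arrays, controls included. By that test 118 of the 1798 members differed (limma, Benjamini-Hochberg adjusted p under 0.05), which is 6.56%, against 556 of the 6039 other rows (9.21%) and 674 of all rows tested (8.60%). The criterion leaves out rows that moved with 1 siRNA only or in opposite directions, which by itself lowers the share among members. The shares therefore do not show that the siRNAs acted more alike on the members. Of the 30 higher members that differed, 17 changed more with siRNA 1 and 13 with siRNA 2, and of the 88 lower members 27 changed more with siRNA 1 and 61 with siRNA 2. The count was 62 and 61 without siRNA 1 replicate 1 or 2, and 71 and 60 without siRNA 2 replicate 1 or 2.

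In the 6 lower members that differed most, siRNA 2 gave the lower level. ALYREF, an mRNA export adaptor, was at 7.84 and 7.92 in the controls, 7.72 and 7.74 with siRNA 1 and 6.25 and 6.31 with siRNA 2, so the siRNAs differed by 1.45 (limma, Benjamini-Hochberg adjusted p = 0.000162). ISOC1 was at 9.05 and 9.02, 8.71 and 8.67, and 7.40 and 7.41, a difference of 1.29 (adjusted p = 0.000162). BZW2, a regulator of translation start, was at 8.09 and 8.11, 7.77 and 7.81, and 6.58 and 6.71, a difference of 1.15 (adjusted p = 0.000281). The mitochondrial ribosome protein MRPL58, CDC123, which assembles the initiation factor eIF2, and the actin-capping TMOD3 differed by 1.17, 1.12 and 1.09. In each of these the siRNA 1 arrays lay below the controls but nearer to them than the siRNA 2 arrays. The TMOD3 row is again not the brightest of its gene, and its brightest row, at 9.46 and 9.59 in the controls, was at 9.69 and 9.80 with siRNA 1 but 8.66 and 8.80 with siRNA 2. Close behind them, TEX30, named after its values were seen, and STAMBP, a deubiquitinase, were lower with siRNA 1, by -1.09 and -1.04 for siRNA 1 minus siRNA 2.

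The higher members that differed most went both ways. RC3H2, an RNA-binding ubiquitin ligase, was at 7.28 and 7.05 in the controls, 7.32 and 7.30 with siRNA 1 and 8.07 and 8.19 with siRNA 2, a difference between siRNAs of -0.82 (limma, Benjamini-Hochberg adjusted p = 0.00323). EFR3A, which anchors a phosphatidylinositol kinase at the plasma membrane, and KIF3A, a motor of intraflagellar transport, were likewise higher with siRNA 2, by -0.71 and -0.50 for siRNA 1 minus siRNA 2. FLRT3, a membrane adhesion protein, was at 6.82 and 6.87, 7.88 and 7.79, and 7.24 and 7.11, a difference of 0.66 (adjusted p = 0.00337). HOMER1, a scaffold protein, and TMEM64 were also higher with siRNA 1, by 0.66 and 0.56. In RC3H2 the lower of the siRNA 1 arrays cleared the higher control by only 0.0158, so it met the criterion with nearly all of its change in siRNA 2.

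Rows called for the mean of both siRNAs without meeting the criterion numbered 70, and the siRNAs differed in all 70. A row that overlaps the controls passes the mean test mainly where 1 siRNA moved far more than the other. That count is therefore largely set in advance, and nothing is read from it. TMTC3, a mannosyltransferase of the endoplasmic reticulum, was at 9.62 and 9.64 in the controls, 9.87 and 9.85 with siRNA 1 and 7.68 and 7.62 with siRNA 2, above the controls with 1 siRNA and far below with the other. Its mean change of -0.88 had an adjusted p of 0.00115 with 3 groups and 0.689 in the pooled fit (limma, Benjamini-Hochberg). The DNA helicase RECQL, ARHGAP1, the phosphoesterase PRUNE1 and the splicing factor SMU1 had pooled differences of -0.82, -0.79, -0.78 and -0.70 that came from siRNA 2, with 0.00 to 0.06 from siRNA 1. UHMK1, a kinase of splicing factors, had 0.83, with 0.08 from siRNA 1 and 1.58 from siRNA 2.

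**Figure D4:**
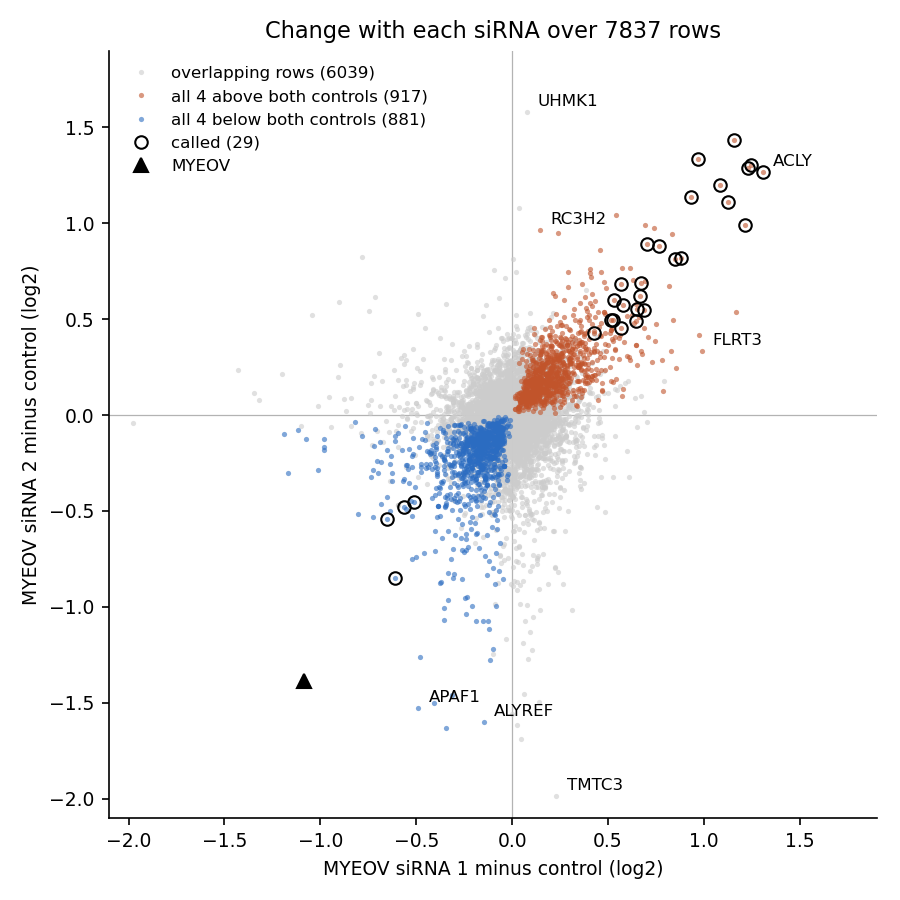
Change in log2 signal with siRNA 1 (horizontal axis) and siRNA 2 (vertical axis), each minus the same 2 control arrays, for the 7837 rows tested; orange and blue points are the 917 higher and 881 lower rows, grey points the 6039 that overlap, circles the 29 called rows and the triangle MYEOV. ALYREF and TMTC3 changed by -1.60 and -1.99 with siRNA 2 and by -0.15 and 0.23 with siRNA 1, and both axes rest on the same controls.

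The gene lists, chosen with earlier results of these data known, are described by their counts beside the background of 22.9% non-overlapping genes and a median change of -0.00692 over 7442 genes with 1 row each. Of 672 list genes tested, 168 were members. Calls with 3 groups in the lists below leave the replicate pairing out and have no value with the block. Cholesterol synthesis had the largest share of the 33 lists, 60%, with 8 of 15 genes higher and 1 lower and a median of 0.109. None passed the pooled test, and INSIG1 passed with 3 groups. INSIG1, the sterol-sensing retention protein of SREBP, was at 8.97 and 8.97 in the controls, 9.09 and 9.16 with siRNA 1 and 9.35 and 9.36 with siRNA 2, a difference of 0.27 (limma, Benjamini-Hochberg adjusted p = 0.318 pooled and 0.0419 with 3 groups). The enzymes PMVK, MSMO1, MVD and EBP had differences of 0.20, 0.17, 0.17 and 0.16, each clear of the controls and none past either test. FDPS, farnesyl diphosphate synthase, was the lower 1, at 7.04 and 7.16 against 6.74 to 7.02, and with quantile normalization 0 were lower.

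Of 16 fatty acid synthesis genes, 5 were higher and 1 was lower (37.5%, against 22.9% over all genes), with a median of 0.0911. ACLY, given above, rose. ELOVL5, an elongase of polyunsaturated fatty acids, was at 8.17 and 8.13 in the controls, 8.50 and 8.50 with siRNA 1 and 8.43 and 8.40 with siRNA 2, a difference of 0.30 (limma, Benjamini-Hochberg adjusted p = 0.134 pooled and 0.0280 with 3 groups). ACACB, SREBF1 and SCD had differences of 0.23, 0.19 and 0.16, and FASN, fatty acid synthase, was at 8.54 and 8.62 against 8.34 to 8.53, a difference of -0.17. ACLY was the 1 gene of this list past the pooled test.

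Ribosome biogenesis and MYC targets were the list with the most lower genes, 13 of 26, with 1 higher (53.8% together, against 22.9% over all genes). The median was -0.147, and 13 were also lower with quantile normalization. None passed the pooled test. ODC1, the rate-limiting enzyme of polyamine synthesis, was at 10.90 and 10.89 in the controls, 10.68 and 10.55 with siRNA 1 and 10.68 and 10.51 with siRNA 2, a difference of -0.29 (limma, Benjamini-Hochberg adjusted p = 0.206). MYC, the transcription factor, was at 9.41 and 9.39 against 9.08 to 9.24, a difference of -0.21 (adjusted p = 0.289). LYAR and RRP12 had -0.34 and -0.25. NIP7 and WDR12, factors of the large ribosomal subunit, passed with 3 groups and did so through 1 siRNA each: NIP7 was at 9.92 and 10.04, 9.87 and 9.86, and 8.91 and 8.83, and WDR12 at 8.18 and 8.14, 7.44 and 7.32, and 7.99 and 8.11. The 1 higher gene was DDX21, a nucleolar helicase, at 11.05 and 11.06 against 11.20 to 11.29.

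Splicing and mRNA export factors had 11 lower and 3 higher of 38 (36.8%, against 22.9% over all genes). Their median was -0.0668, and 8 were lower with quantile normalization. Without siNC replicate 1, which loosens the criterion, the lower count was 20, and over all 7442 genes it went from 814 to 1699. NXT1, a cofactor of mRNA export, was at 7.79 and 7.75 in the controls, 7.55 and 7.53 with siRNA 1 and 7.49 and 7.51 with siRNA 2, a difference of -0.25 (limma, Benjamini-Hochberg adjusted p = 0.170 pooled and 0.0559 with 3 groups). PRPF8 and SNRNP200, core proteins of the spliceosome, were at 11.12 and 11.16 against 10.97 to 10.98 and at 9.66 and 9.69 against 9.50 to 9.56. None of the list's genes passed the pooled test, and with 3 groups 2 passed, ALYREF and SMU1, given above with their difference between the siRNAs.

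**Figure D5:**
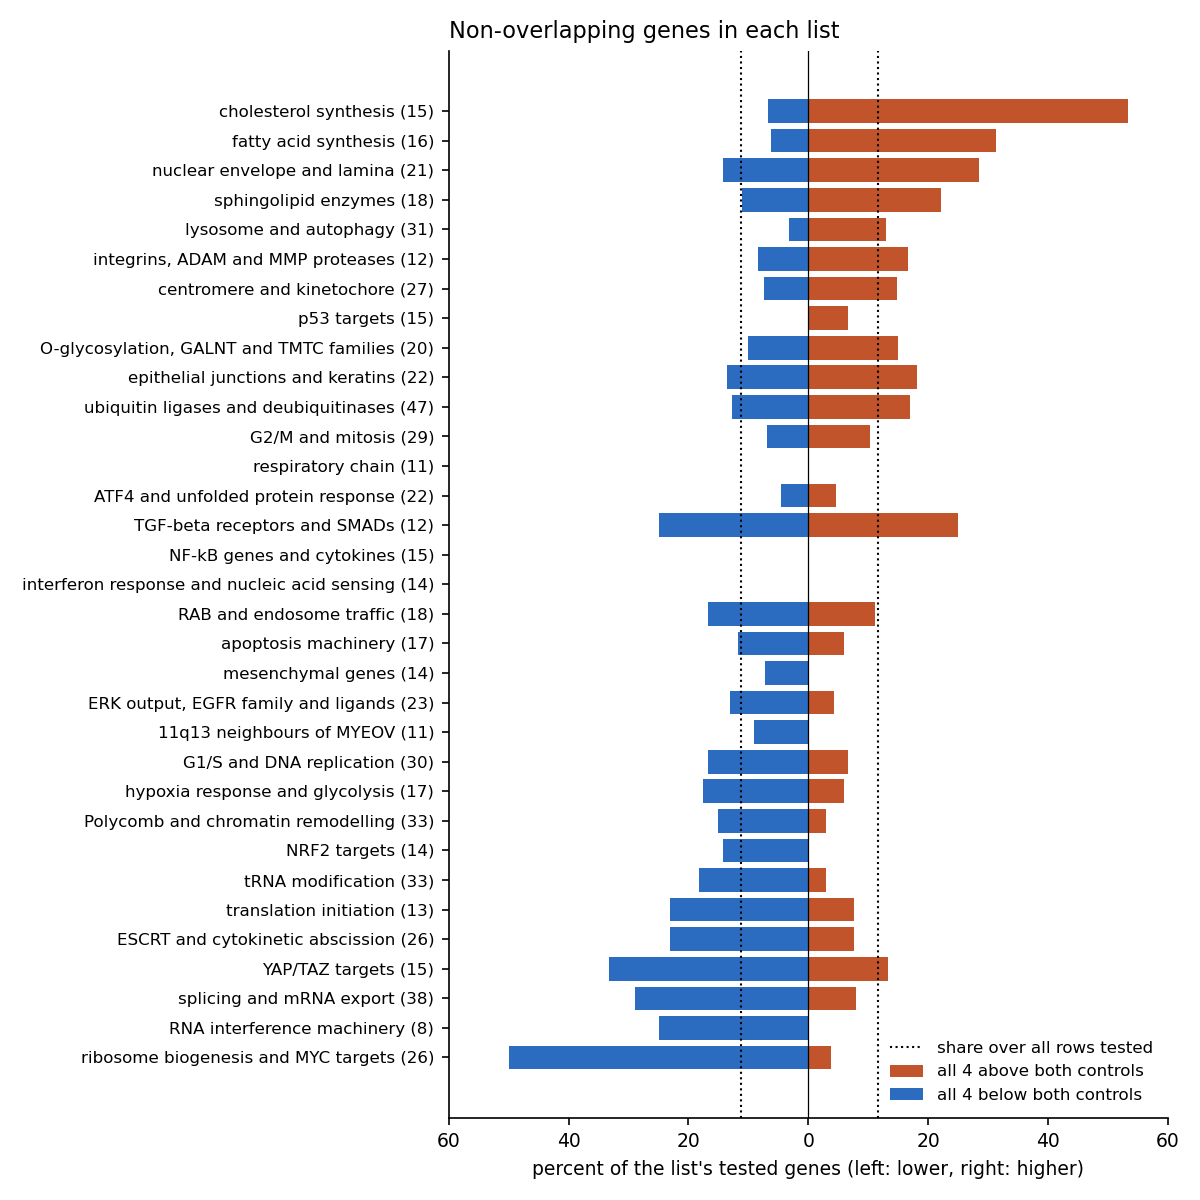
Percent of each list's tested genes with all 4 knockdown arrays above both controls (orange, right) or below both (blue, left), with the number tested in brackets, lists ordered by the share higher minus the share lower; dotted lines give the shares over all rows tested, 11.7% and 11.2%. Cholesterol synthesis has 8 of 15 to the right, ribosome biogenesis 13 of 26 to the left, and the respiratory chain, NF-kB and interferon lists have 0 on either side.

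The nuclear envelope list had 6 higher and 3 lower genes of 21 (42.9%, against 22.9% over all genes), with a median of 0.0349. Besides LBR, SUN2 and LEMD3, inner nuclear membrane proteins, passed with 3 groups. SUN2 was at 6.11 and 6.35 in the controls, 6.58 and 6.54 with siRNA 1 and 6.63 and 6.64 with siRNA 2, a difference of 0.37 (limma, Benjamini-Hochberg adjusted p = 0.150 pooled and 0.0442 with 3 groups). LEMD3, which also binds SMAD proteins, was at 7.31 and 7.28 against 7.54 to 7.67 (0.126 and 0.0353). TMEM43, a lower gene of the list, passed with 3 groups too: it was at 10.47 and 10.41, 10.30 and 10.24, and 9.81 and 9.69, a difference of -0.43 (0.409 and 0.0132). Also lower, LMNB1, lamin B1, was at 9.45 and 9.71 against 9.27 to 9.44, while LMNB2, lamin B2, was at 8.04 and 8.20 against 8.29 to 8.36, on the other side.

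TGF-beta receptors and SMADs had 3 higher and 3 lower of 12 (50%, against 22.9% over all genes). SMAD5, a signal carrier of BMP receptors, was at 7.07 and 6.84 in the controls, 7.45 and 7.49 with siRNA 1 and 7.43 and 7.34 with siRNA 2, a difference of 0.47 (limma, Benjamini-Hochberg adjusted p = 0.0903 pooled and 0.0203 with 3 groups). SMAD2, which carries the TGF-beta signal, was at 9.80 and 9.94 against 10.16 to 10.24, and USP15, a deubiquitinase of that pathway, at 7.78 and 7.73 against 7.92 to 8.22, and both passed with 3 groups. SMAD3, the partner of SMAD2, was at 6.26 and 6.25 against 5.67 to 6.21, and the common SMAD4 at 9.24 and 9.21 against 9.08 to 9.20. The receptor-activated SMADs therefore stood on both sides of the control, and 0 members of the list passed the pooled test.

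The centromere list, beside MIS18A and CENPK, held CENPQ, at 6.59 and 6.74 in the controls, 7.16 and 7.14 with siRNA 1 and 7.45 and 7.27 with siRNA 2, a difference of 0.59 (limma, Benjamini-Hochberg adjusted p = 0.0903 pooled and 0.0102 with 3 groups). On the lower side, MAD2L1, a spindle checkpoint protein, was at 8.18 and 8.46, 8.07 and 8.08, and 7.34 and 7.39, a difference of -0.60 (0.406 and 0.0118). The list's median was 0.0128. Of 15 YAP/TAZ targets and factors, 2 were higher and 5 lower (46.7%, against 22.9% over all genes), with a median of -0.184. YAP1, the coactivator itself, was at 8.08 and 8.03 against 8.27 to 8.38, and TEAD4, a DNA-binding partner, at 8.37 and 8.26 against 8.10 to 8.17. TEAD2, of the same family but outside this list, went the other way. It rose by 0.57 ± 0.06 (limma, Benjamini-Hochberg adjusted p = 0.0212) but was not called with the replicate block (adjusted p = 0.0732). CRIM1 and WWTR1, which encodes TAZ, were lower mainly with siRNA 2, at 10.02 and 10.05 for CRIM1 against 10.47 and 10.51 in the controls.

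Among the rest, G1/S and DNA replication genes had 5 lower and 2 higher of 30 (23.3%, against 22.9% over all genes). E2F1, which drives entry into S phase, was at 7.43 and 7.44 in the controls against 7.59 to 7.72, while CCNE1, cyclin E1, was at 9.09 and 9.08 against 8.73 to 8.94. The ubiquitin list had 8 higher and 6 lower of 47 (29.8%). USP14, a deubiquitinase of the proteasome, was at 9.66 and 9.80 against 10.18 to 10.40, a difference of 0.58 (limma, Benjamini-Hochberg adjusted p = 0.0537 pooled and 0.00668 with 3 groups), and ITCH, a ubiquitin ligase, at 10.28 and 10.20 against 9.75 to 9.95. Of 33 transfer RNA modification genes, 6 were lower and 1 higher (21.2%, no more than over all genes), YRDC among the lower. Interferon response (14 tested), NF-kB and cytokine (15) and respiratory chain (11) lists had 0 members in either direction, and p53 targets had 1 of 15, RRM2B, a ribonucleotide reductase subunit, at 7.08 and 7.33 against 7.37 to 7.81.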

How the data were processed

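Total RNA of the 6 A549 samples was labelled and hybridised to Affymetrix whole-transcript arrays, per the labels' protocols. The authors deposited log2 values, and the submitters' processing notes name RMA as the tool, without a version. RMA subtracts background, gives all arrays 1 distribution and combines the probes of a transcript, which shrinks differences near background. The platform annotation gave 1 symbol to 16098 of 53617 rows and none to 37519, and all 16098 were found in RefSeq (GRCh38.p14). Rows with a mean of at least 5.45, the median over named genes, were tested with limma 3.58.1 (R 4.3.3; lmFit, eBayes; 4 residual and 3.132 prior degrees of freedom) as 2 groups, and as 3 groups for the difference between the siRNAs. The groups share replicate numbers, and the labels do not say what a number marks. Deviations of replicate 1 from the group means correlated across rows by 0.271, 0.205 and 0.246 between the 3 pairs of groups, so the numbers were taken from the data as a pairing. A fit with the replicate number as a block was run for the pooled test and for the difference between the siRNAs. It is given where it changes a pooled call. The 3-group mean and each siRNA against control were not refitted with the block. The number of arrays limits the precision. The members and gene lists were chosen with earlier results of these data known.

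Named genes were MYEOV, the 15 called members per direction with the widest gap, the 6 members of each direction with the largest difference between siRNAs, the 6 largest changes called with 3 groups without being members, up to 5 members per direction of each list, and rows nearest the criterion. Non-coding symbols were left out of rankings. The steps were tested on simulated data, and figures were drawn with matplotlib 3.10.9.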

Additional observations from a re-analysis of the deposited data

Results flagged for a closer look

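Of the 1798 members, 118 differed between the siRNAs (limma, 3 groups, Benjamini-Hochberg adjusted p under 0.05). Differences below are siRNA 1 minus siRNA 2 on the log2 scale, by the test between them, for genes named by the rule. Among the higher members they were -0.37 for CENPK, which was also called in the pooled fit, -0.82 for RC3H2, -0.71 for EFR3A and -0.50 for KIF3A, all higher with siRNA 2, and 0.66 for FLRT3, 0.66 for HOMER1 and 0.56 for TMEM64, all higher with siRNA 1.

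Lower members that were lower still with siRNA 2 were ALYREF (1.45), ISOC1 (1.29), MRPL58 (1.17), BZW2 (1.15), CDC123 (1.12), TMOD3 (1.09), APAF1, the core of the apoptosome (1.04), NIP7 (1.00), MAD2L1, a spindle checkpoint protein (0.71), CCND1 (0.64), the nuclear envelope protein TMEM43 (0.52), MAK16, a ribosome assembly factor (0.50), CRIM1 (0.34) and WWTR1 (0.33). APAF1 and MAK16 were chosen for their gaps after their values were seen. Lower members that were lower still with siRNA 1 were the deubiquitinase STAMBP (-1.04), the protease ADAM9 (-0.95), the sphingosine phosphatase SGPP1 (-0.87), the Polycomb protein PCGF5 (-0.82), the ESCRT-III subunit CHMP1B (-0.78), WDR12 (-0.67) and the phosphatase CDC25A (-0.40).

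Outside the members, the siRNAs differed by 2.22 for TMTC3, 1.74 for RECQL, 1.64 for ARHGAP1, 1.56 for PRUNE1, 1.52 for SMU1 and -1.50 for UHMK1.

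In 6 of the named genes 1 of the 4 knockdown arrays stood apart from the other 3, with a gap to the next array that, as a share of their range, passed Dixon's 95% limit (chance passes it in about 1 of 20 groups, and 193 named genes were examined). The ratio was 0.947 for ITCH, where siRNA 1 replicate 2 was lowest at 9.75, and 0.840 for SMAD3, where siRNA 2 replicate 2 was lowest at 5.67. It was 0.849 for MMP15, where siRNA 1 replicate 1 was lowest at 6.71, and 0.873 for TRMT10C, where siRNA 1 replicate 2 was highest at 7.48. It was 0.857 for ACACB, where siRNA 1 replicate 1 was highest at 6.62, and 0.837 for MBNL1, where siRNA 2 replicate 2 was highest at 10.87.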

How the results depend on the processing

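The pooled test called 25 rows higher and 4 lower. Higher and lower calls numbered 8 and 0 with no level filter, 191 and 228 with 3 groups, and 39 and 10 with a trend and robust prior. Lower calls were 8 with the 75th percentile filter, and 0, 0, 1 and 0 with 1 row per gene, with unnamed rows included, with quantile normalization and with the siRNA as a random block. That random block kept 17 higher calls and gave MYEOV an adjusted p of 0.11 (limma). The higher calls lost with it were CDC23, CLIC4, FAM241A, FBXO7, HSPB1, ITIH2, PIP4P2 and SEPTIN10 (limma adjusted p = 0.0502 to 0.11). Leaving out 1 array gave 2 to 14 higher and 0 to 1 lower calls. MYEOV was not called in the pooled fit (-1.24, limma adjusted p = 0.0526), and was called at -1.24 with 3 groups (0.00834) and with the trend and robust prior (0.0438). Its change ran from -1.39 to -1.09 without 1 array, where the adjusted p ran from 0.0398 (without siRNA 2 replicate 2) to 0.343. MYEOV lies below the 75th percentile filter and has no value there. Rows meeting the criterion numbered 1587 higher and 1397 lower with no filter, 484 and 528 with the 75th percentile filter, and 1667 and 1803 with unnamed rows. Without 1 array, which loosens the criterion, they numbered 1106 to 1814 and 1083 to 1852. Higher and lower rows split as 1082 and 723 with quantile normalization, against 917 and 881. Members that differed between the siRNAs numbered 41 with no filter and 60 to 168 without 1 array, against 118. The causes of these shifts were not tested, apart from the number of arrays and rows that each setting changes.

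With the replicate number as a block, 9 rows were called higher and 0 lower, the lost calls being given with their values above; MYEOV stayed uncalled (limma adjusted p = 0.128) and 146 members differed between the siRNAs. An array has no counting depth, so rows near background are limited by signal: of the named rows, 7837 of 16098 reached the level used.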

Other observations

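Sphingolipid enzymes, which balance ceramide, sphingosine and their phosphates, had 4 higher and 2 lower of 18 tested genes (33.3%, against 22.9% over all rows). Their median change was -0.0638, and 0 passed the pooled test. Values with 3 groups leave the replicate pairing out here too. SGMS2, which makes sphingomyelin, was at 6.44 and 6.28 with siNC, 6.77 and 6.79 with siRNA 1 and 6.91 and 6.95 with siRNA 2, a difference of 0.49 (limma, Benjamini-Hochberg adjusted p = 0.0821 pooled and 0.0104 with 3 groups). CERK, ceramide kinase, was at 7.59 and 7.66 against 7.82 to 8.11, a difference of 0.37 (0.182 and 0.0275). On the lower side ACER2, a Golgi ceramidase, was at 6.53 and 6.37 against 5.68 to 5.99, a difference of -0.57 (0.0903 and 0.0168), and SGPP1 was at 8.96 and 8.99, 7.77 and 7.85 with siRNA 1, and 8.63 and 8.72 with siRNA 2.

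Epithelial junction genes and keratins had 4 higher and 3 lower of 22 (31.8%, against 22.9% over all rows). TJP3, a tight junction scaffold, was at 5.47 and 5.42 in the controls against 5.78 to 6.10, a difference of 0.50 (limma, Benjamini-Hochberg adjusted p = 0.105 pooled and 0.0135 with 3 groups). The control mean of TJP3, 5.448, lay just under 5.45, the mean level set for a row to be tested. Its mean over all arrays, 5.78, passed that level through the knockdown values. JUP, plakoglobin, was at 8.91 and 8.73 against 9.10 to 9.21, a difference of 0.34 (0.148 and 0.0430). EPCAM was at 6.92 and 7.11 against 7.19 to 7.27, while the keratins KRT8 and KRT7 had differences of -0.24 and -0.14. Chromatin genes had 5 lower and 1 higher of 33 (18.2%), among them the remodeller CHD7, at 6.83 and 7.02 against 6.47 to 6.54, a difference of -0.41 (0.0913 and 0.0244), and the Polycomb protein L3MBTL2, at 7.10 and 6.91 against 6.34 to 6.73, a difference of -0.49 (0.189 and 0.0172). The ERK output list had 1 higher and 3 lower of 23 (17.4%, fewer than the 22.9% over all rows), and 0 passed the pooled test. Of that list, SHC1, an adaptor of receptor kinases, had a difference of 0.36 (0.118 and 0.0252) and SPRY2, a feedback inhibitor, of -0.47 (0.208 and 0.0275).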
